A study of Saccharomyces cerevisiae with 14 samples.

Results

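The 46 genes described here encode the machinery that copies yeast DNA and several factors that repair and package it. They were chosen by their systematic open reading frame names from the 6670 identifiers of the count table, by role and not by level: the DNA polymerases and primase, the sliding clamp and its loaders, the GINS complex, CDC45 and origin firing factors, fork protection and checkpoint genes, replication protein A (RPA), mismatch repair and recombination genes, CDC21, CDC9, RAD27, and chromatin assembly genes. The list was chosen with earlier results of these data known. All 46 passed the filter on low counts.

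In budding yeast, many replication genes are transcribed in a burst at the G1/S transition. The transcription factor MBF, made of Mbp1 and Swi6, acts on many of them through the MCB element (core ACGCGT), while the related factor SBF, made of Swi4 and Swi6, acts mainly on cyclin and cell wall genes through the SCB element (CACGAAA or CGCGAAA). The products then act together at the fork. Polymerase alpha-primase lays the primers, and polymerases epsilon and delta, held on DNA by the clamp PCNA, extend the strands. RPA coats single-stranded DNA, and Rad27 and Cdc9 finish the lagging strand.

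The data were 14 poly-A RNA libraries of Saccharomyces cerevisiae, all of genotype Z3EVpr-SWI4, in which a promoter driven by an estradiol-responsive synthetic activator controls SWI4. There were 7 groups of 2 replicates: untreated cells at 0 h, cells kept with the solvent ethanol for 1, 2 or 4 h, and cells kept equally long with beta-estradiol at 5 nM, dissolved in ethanol, all in synthetic complete medium with 2% glucose. The treatment protocol names 1 h of induction, whereas the samples' own labels give 1, 2 and 4 h, which set the groups. No group lacked the construct or received estradiol without it, so an effect of SWI4 cannot be told apart from another effect of estradiol or of the activator. The labels do not state that replicates were separate cultures, so p-values measure only the spread between these samples. In bulk RNA, a smaller share of cells in a cycle phase and less RNA per cell cannot be told apart.

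The promoters of the genes with the smallest p-values for estradiol are shown to place the MCB elements. Each run is 200 bases of the RefSeq R64 assembly, read 5′ to 3′ on the gene's strand and ending 100 bases before the start codon, with ACGCGT and CGCGAAA in capitals. CDC21, on the minus strand, is chrXV:467690-467889, and its elements end 152 and 115 bases before the start codon. CDC9, on the minus strand, is chrIV:167355-167554, and its CGCGAAA and ACGCGT stand side by side without overlap, ending 125 and 119 bases before the start codon. RAD27, on the minus strand, is chrXI:225976-226175, with elements ending 174 and 122 bases before the start codon.
CDC21: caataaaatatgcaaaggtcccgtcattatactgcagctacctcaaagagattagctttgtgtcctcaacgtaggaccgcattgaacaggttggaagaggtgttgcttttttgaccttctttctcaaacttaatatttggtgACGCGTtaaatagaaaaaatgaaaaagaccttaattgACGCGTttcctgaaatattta
CDC9: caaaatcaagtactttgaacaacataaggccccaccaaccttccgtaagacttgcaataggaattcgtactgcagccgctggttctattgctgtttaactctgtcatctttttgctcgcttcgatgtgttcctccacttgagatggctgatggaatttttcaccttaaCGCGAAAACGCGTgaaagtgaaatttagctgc
RAD27: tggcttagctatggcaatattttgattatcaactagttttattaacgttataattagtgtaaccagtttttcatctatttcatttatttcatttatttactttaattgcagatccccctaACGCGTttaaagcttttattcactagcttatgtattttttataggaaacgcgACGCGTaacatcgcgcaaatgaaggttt

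The search covered 300 bases before the start codon on both strands of 6007 nuclear genes. ACGCGT was found in 30 of the 46 promoters (65.2%) against 209 of all 6007 (3.5%), and 14 of the 46 held 2 copies against 23 of all that held 2 or more (0.38%). CGCGAAA was found in 8 of the 46 (17.4%) against 3.9% of all, and CACGAAA in 2 (4.3%) against 4.5% of all. At POL30 the ACGCGT and CGCGAAA matches overlapped. A match is a run of letters and not a measured binding site. Many of the 46 are textbook MBF targets, so the share with ACGCGT is a description of how such genes are known.

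Library totals were 3.47 to 17.3 M reads, and the 46 genes together took 0.1497 to 0.3263% of the counts. SWI4 itself stood at 668 to 1731 CPM (read counts scaled to library size with TMM factors) in the 6 estradiol libraries, against 12.1 to 23.0 in ethanol and 17.9 to 20.7 in untreated cells. TMM factors ranged from 0.708 to 1.23, and were lowest in the first ethanol 1 h and the second estradiol 2 h library. Counts carry no coordinates, and no source used here gives their build or strand handling. In R64, no other gene's coding sequence overlaps that of any of the 46. The 671 identifiers of the count table without a match in R64 were not checked for overlap.

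The genes that passed the test of estradiol against ethanol were all lower in estradiol. Over the 3 times, 8 of the 46 fell and 0 rose (edgeR quasi-likelihood test, Benjamini-Hochberg adjustment over all genes). That is 17.4% of the 46, where 6.22% of all genes were called, 2.93% lower and 3.29% higher. The 8 were CDC21, CDC9, RAD27, POL1, POL12, TOF1, RFA1 and ASF1. The median log2 difference of the 46 was -0.19, against 0.018 over all genes, and 36 of the 46 lay below 0.

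At single times fewer passed, with 2 per group. At 1 h, 2 of the 46 fell and 0 rose, CDC21 and CDC9 (4.35%, against 0.963% of all genes called, 0.489% lower and 0.473% higher). At 2 h, CDC21 alone fell (2.17%, against 1.26% of all genes, 0.363% lower and 0.899% higher). At 4 h it was again CDC21 (2.17%, against 1.88% of all genes, 0.694% lower and 1.18% higher). The medians of the 46 were -0.26, -0.23 and -0.16 at 1, 2 and 4 h, beside 0.006, 0.024 and -0.008 over all genes. At unadjusted p under 0.05 there were 12, 13 and 8 members, which is 26.1%, 28.3% and 17.4%, against 9.72%, 6.39% and 7.84% of all genes. Of the 46, 28 lay below 0 at every time, 4 above 0 at every time and 14 had mixed signs. A change of the effect with time was called for 0 members by edgeR and 0 by DESeq2, beside 0 and 0.0473% of all genes. At unadjusted p under 0.05 (edgeR) there were 2 members, among them POL30 (4.35%, against 1.14% of all genes).

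The sign of the 1 h median depended on how libraries were scaled. Scaled by library totals alone, the all-gene median at 1 h moved from 0.006 to 0.32 and the median of the 46 to 0.07, so the median of the 46 still lay under that of all genes but 24 of them had positive values. Over the 3 times the median of the 46 was -0.12 under library totals, beside 0.06 over all genes, and CDC21 was the only member still called.

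**Figure D1:**
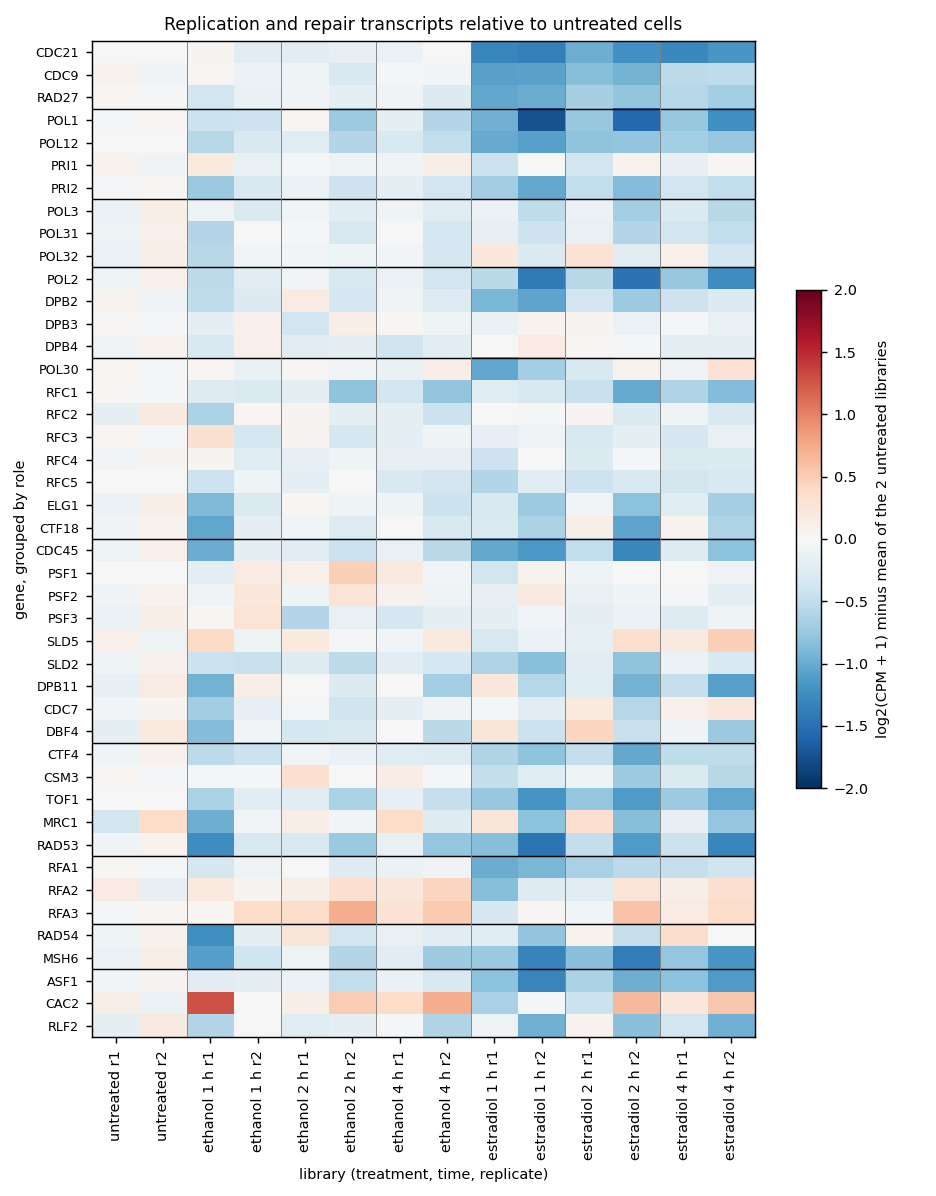
Log2(CPM + 1) of 44 of the 46 genes minus the untreated mean, with a row for each gene and a column for each of the 14 libraries, colours cut at -2 and 2. CDC21 is low in all 6 estradiol columns, and POL30 is low in the estradiol columns of 1 h.

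All 3 genes listed as the thymidylate and Okazaki fragment group were called lower over the 3 times. At 1, 2 and 4 h alone, 2, 1 and 1 of the 3 were called. CDC21 (YOR074C) encodes thymidylate synthase, which makes the thymidine nucleotide that only DNA uses. Its level was 60.0 and 60.0 CPM in untreated cells and 62.0, 51.6, 51.0, 53.5, 55.5 and 59.4 CPM in the ethanol libraries from 1 to 4 h. In estradiol it stood at 23.6 and 22.6 CPM at 1 h, 30.1 and 25.4 at 2 h, and 24.0 and 26.2 at 4 h. The highest estradiol library, at 30.1, was far under the lowest ethanol one, at 51.0, so the groups did not overlap. The mean effect was 2.18-fold lower (log2 -1.12, SE 0.10, adjusted p = 2.32e-05, edgeR quasi-likelihood test). The log2 differences at 1, 2 and 4 h were -1.29 (SE 0.17), -0.91 (SE 0.17) and -1.20 (SE 0.17), with adjusted p = 0.00397, 0.0211 and 0.0024. Its change with time was not called (adjusted p = 0.999). Leaving out either estradiol 1 h library ended the 1 h call, with adjusted p = 0.0537 to 0.0586, and the 2 h call ended on leaving out any of 6 libraries (both untreated, both ethanol 2 h, the first ethanol 4 h and the second estradiol 2 h), with adjusted p = 0.0519 to 0.194. Without the first estradiol 4 h library the 4 h value was -1.14 with adjusted p = 0.0501. Under library totals alone all 3 of these calls ended, with log2 differences of -0.95, -0.96 and -1.24 and adjusted p = 0.588, 0.496 and 0.151.

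CDC9 (YDL164C) encodes DNA ligase I, which joins Okazaki fragments. It stood at 105 and 94.9 CPM untreated, and at 102, 92.2, 94.2, 80.9, 98.9 and 96.2 CPM in ethanol from 1 to 4 h. The estradiol libraries held 46.8 and 47.0 CPM at 1 h, 55.2 and 51.6 at 2 h, and 69.2 and 70.1 at 4 h. All 6 lay under every ethanol library, and the lowest pair was the 1 h pair. Over the 3 times the effect was -0.73 on the log2 scale (SE 0.10, adjusted p = 0.000705). At 1, 2 and 4 h the log2 difference was -1.05, -0.71 and -0.49, of which the first was called (adjusted p = 0.00773). The joint test of a change with time gave an unadjusted p = 0.0759 and an adjusted p = 0.999. The 1 h call was lost without the first ethanol 1 h library or without either estradiol 1 h library, at adjusted p = 0.0516 to 0.109.

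RAD27 (YKL113C) encodes the flap nuclease that trims the ends of Okazaki fragments. Untreated cells had 139 and 132 CPM, and ethanol libraries had 103, 123, 129, 119, 129.6 and 112 CPM from 1 to 4 h. Estradiol libraries had 65.6 and 67.7 CPM at 1 h, 84.8 and 77.9 at 2 h, and 90.5 and 84.0 at 4 h. The 2 treatments did not overlap, since the highest estradiol library was 90.5 and the lowest ethanol library 103. Averaged over time, the difference was -0.60 (SE 0.09, adjusted p = 0.00174), while no single time passed, with log2 differences of -0.77, -0.61 and -0.47.

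**Figure D2:**
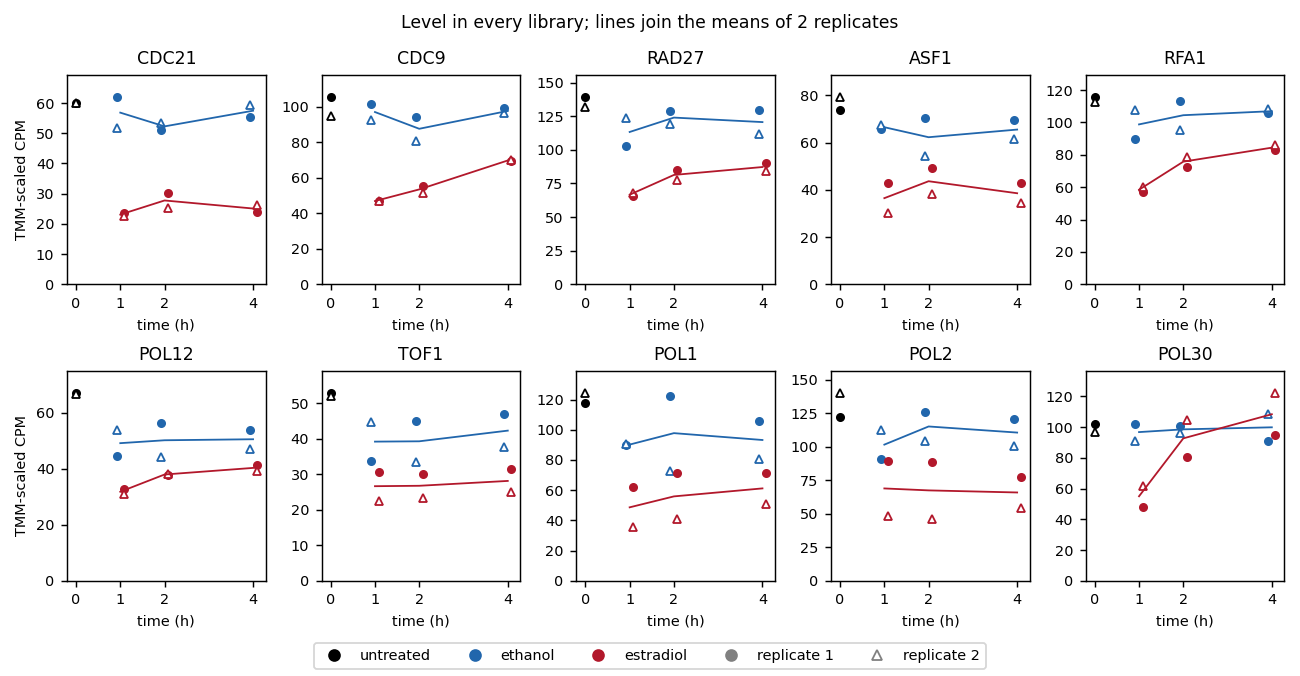
CPM in every library for the 8 called genes, POL2 and POL30, by treatment and time. The CDC21, CDC9 and RAD27 estradiol points stay below all ethanol points at each time, while the POL30 estradiol points are lowest at 1 h.

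Polymerase alpha-primase starts each new strand, and 2 of its 4 genes fell. POL1 (YNL102W), the catalytic subunit, had 118 and 124 CPM untreated and 89.97, 90.4, 123, 72.9, 106 and 80.5 CPM in ethanol. Under estradiol it had 61.8 and 35.4 CPM at 1 h, 71.1 and 40.7 at 2 h, and 71.3 and 51.0 at 4 h. The second estradiol library was lower than the first at each time, and the highest, 71.3, was just under the lowest ethanol value, 72.9. Its mean effect was -0.75 (SE 0.19, adjusted p = 0.039). That call was lost on leaving out any of 7 libraries (both ethanol 1 h, the first ethanol 2 h, both ethanol 4 h, and the second estradiol 1 h and 4 h), at adjusted p = 0.0556 to 0.108.

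POL12 (YBL035C), the regulatory B subunit, had 67.0 and 66.8 CPM untreated, 44.6, 53.8, 56.3, 44.2, 54.1 and 47.1 in ethanol. Estradiol libraries gave 32.7 and 31.0 CPM at 1 h, 37.8 and 38.2 at 2 h, and 41.4 and 39.3 at 4 h. All estradiol values were below all ethanol values, though ethanol was itself under the untreated level. POL12 had a mean effect of -0.44 (SE 0.10, adjusted p = 0.0232), lost without any of 6 libraries (the second ethanol 1 h, the first ethanol 2 h and 4 h, the second estradiol 1 h and 4 h, and the first estradiol 2 h) at adjusted p = 0.0502 to 0.0662. The primase genes PRI1 and PRI2 gave -0.13 and -0.30 and were not called. The range over the 4 was -0.75 to -0.13.

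No gene of polymerase delta or polymerase epsilon was called in the mean effect. Polymerase delta copies the lagging strand, and its catalytic gene POL3 (YDL102W) had 58.2 and 69.1 CPM untreated, with 59.4, 51.9, 61.3, 53.9, 59.7 and 53.4 in ethanol. In estradiol POL3 had 58.4 and 44.3 CPM at 1 h, 58.6 and 39.4 at 2 h, and 52.2 and 43.0 at 4 h, overlapping with ethanol. Its mean effect was -0.18 (SE 0.12, adjusted p = 0.524), and POL31 and POL32 gave -0.15 and 0.16.

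Polymerase epsilon copies the leading strand. POL2 (YNL262W), its catalytic gene, had 122 and 139.7 CPM untreated and 90.7, 112, 126, 104, 121 and 100.2 CPM in ethanol. Under estradiol POL2 was at 89.5 and 48.1 CPM at 1 h, 88.7 and 46.04 at 2 h, and 77.2 and 54.5 at 4 h. The highest estradiol value, 89.5, was just under the lowest ethanol value, 90.7, and the second replicate was the lower one each time. The mean effect of -0.68 (SE 0.19) did not pass (adjusted p = 0.0586), and with size factors by the median of ratios it did (adjusted p = 0.0456). DPB2 gave -0.41, DPB3 0.01 and DPB4 0.18, so the 4 genes of this complex spread from -0.68 to 0.18.

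**Figure D3:**
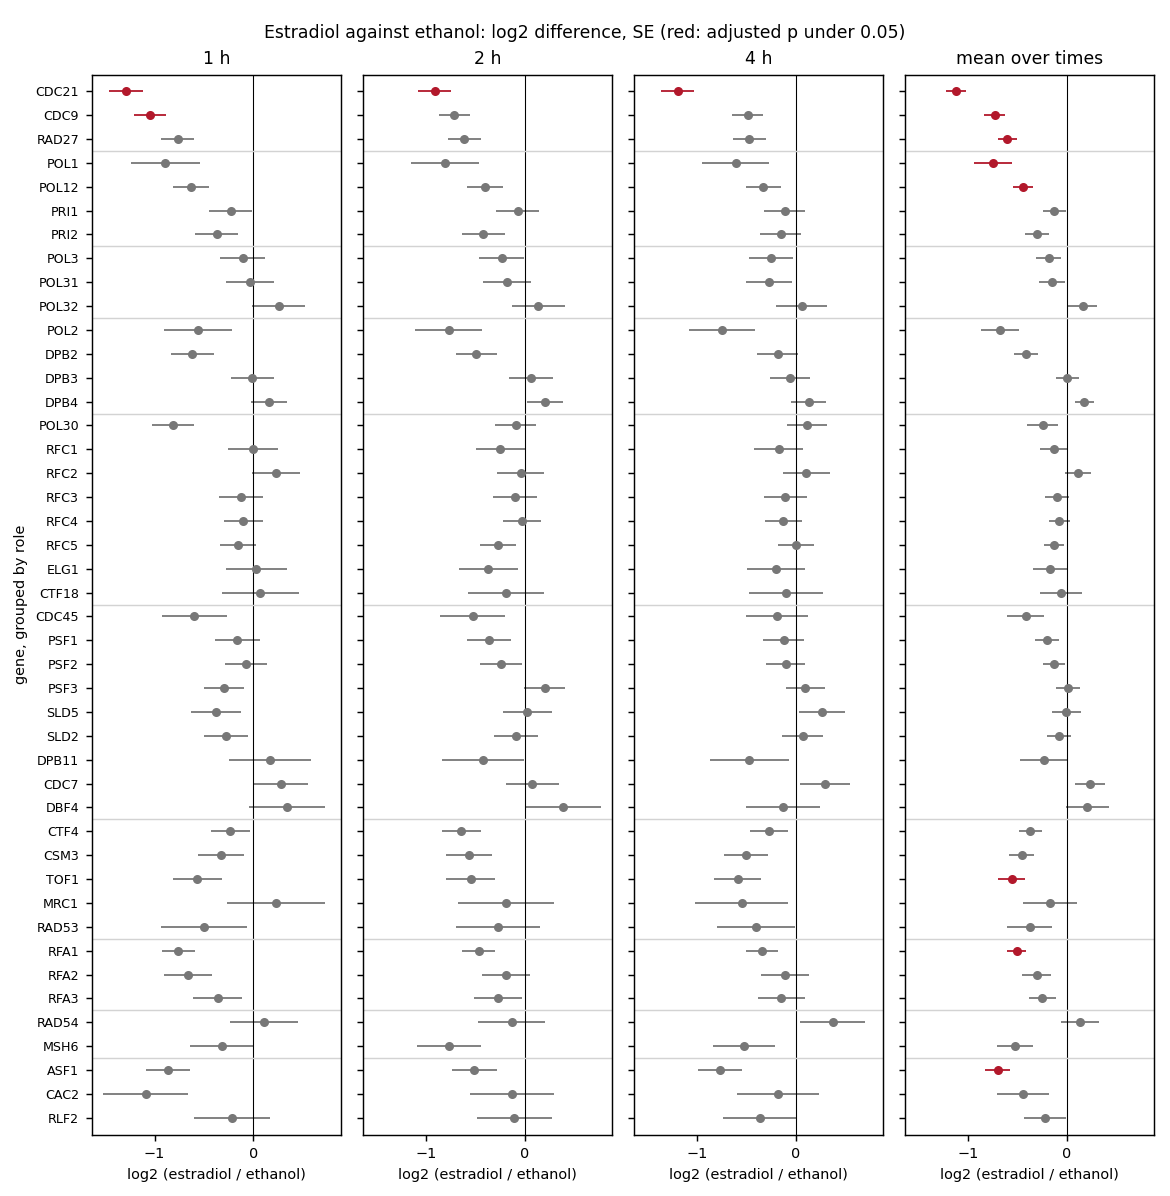
Log2 difference of estradiol against ethanol for 44 of the 46 genes, at 1, 2 and 4 h and over the 3 times, with genes ordered by role; bars are standard errors and red marks called genes. CDC21 is red at every time, and 8 genes are red in the mean effect.

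Of the clamp PCNA and the clamp loaders, 0 of 8 were called over the 3 times, with a median of -0.11 and a range of -0.24 to 0.11. POL30 (YBR088C) encodes PCNA, the ring that holds polymerases on DNA. It stood at 102 and 97.2 CPM untreated and at 102, 91.2, 101, 96.2, 91.0 and 109 CPM in ethanol. In estradiol it was 48.1 and 62.0 CPM at 1 h, 80.9 and 105 at 2 h, and 94.9 and 122 at 4 h. The 1 h pair lay under every ethanol library, and the 4 h pair did not. The log2 differences were -0.81 (SE 0.21, adjusted p = 0.122), -0.09 and 0.12, and the joint test of change with time gave an unadjusted p = 0.0196 with adjusted p = 0.999. The loaders RFC1 to RFC5, ELG1 and CTF18 ranged from -0.17 to 0.11.

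The GINS, CDC45 and origin firing genes likewise had 0 of 9 called, with a median of -0.08 and a range of -0.42 to 0.23. CDC45 (YLR103C), which with GINS activates the MCM helicase, had the smallest p: untreated 44.4 and 50.9 CPM, and 23.4, 41.7, 40.9, 35.2, 43.0 and 32.4 in ethanol. Estradiol libraries held 22.9 and 20.9 CPM at 1 h, 33.6 and 18.9 at 2 h, and 39.7 and 26.5 at 4 h, and the 2 sets overlapped. Its mean effect was -0.42 (SE 0.18, adjusted p = 0.292). The GINS genes PSF1, PSF2, PSF3 and SLD5 lay between -0.20 and 0.01, and CDC7 and DBF4, the kinase that fires origins, were at 0.23 and 0.21.

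Among fork protection and checkpoint genes, 1 of 5 fell. TOF1 (YNL273W), which with Csm3 and Mrc1 stabilises a paused fork, had 52.8 and 52.1 CPM untreated and 33.6, 44.8, 45.2, 33.5, 46.9 and 37.7 in ethanol. Estradiol libraries gave 30.8 and 22.6 CPM at 1 h, 30.1 and 23.4 at 2 h, and 31.4 and 24.9 at 4 h, all under the lowest ethanol value. TOF1 had a mean effect of -0.56 (SE 0.14, adjusted p = 0.0313), lost without any of 7 libraries (the second ethanol 1 h, the first ethanol 2 h, both ethanol 4 h, the second estradiol 1 h, and both estradiol 4 h), at adjusted p = 0.0556 to 0.0865. CSM3 gave -0.46 (adjusted p = 0.0592, and 0.0467 with size factors by the median of ratios), CTF4 -0.37, RAD53, the checkpoint kinase, -0.38, and MRC1 -0.17.

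RPA covers single-stranded DNA at the fork, and 1 of its 3 subunit genes fell. RFA1 (YAR007C), the largest subunit, had 116 and 113 CPM untreated and 89.97, 108, 113, 95.6, 106 and 108 in ethanol. In estradiol it had 56.8 and 60.0 CPM at 1 h, 72.6 and 78.9 at 2 h, and 82.7 and 86.1 at 4 h, all under the lowest ethanol library. RFA1 had a mean effect of -0.51 (SE 0.10, adjusted p = 0.00873). RFA2 and RFA3 gave -0.31 and -0.25.

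Of the recombination and mismatch repair genes, 0 of 4 were called in the mean effect, with a median of 0.17 and 3 of the 4 above 0. MSH6 (YDR097C), a mismatch recognition subunit, had 81.6 and 96.7 CPM untreated and 40.8, 67.2, 82.5, 59.1, 76.2 and 54.0 CPM in ethanol. Estradiol libraries held 52.8 and 34.6 CPM at 1 h, 49.4 and 33.5 at 2 h, and 51.5 and 39.2 at 4 h, overlapping only with the first ethanol 1 h library at 40.8. The mean effect was -0.52 (SE 0.18, adjusted p = 0.145). RAD54, a motor protein of homologous recombination, gave 0.14.

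Chromatin assembly factors place histones behind the fork, and 1 of 3 fell. ASF1 (YJL115W), a histone H3-H4 chaperone, had 73.9 and 79.3 CPM untreated and 65.8, 67.2, 70.4, 54.1, 69.5 and 61.5 in ethanol. Under estradiol ASF1 was at 42.9 and 30.0 CPM at 1 h, 49.1 and 38.2 at 2 h, and 42.8 and 34.3 at 4 h, below every ethanol library. Its mean effect was -0.70 (SE 0.13, adjusted p = 0.00627). CAC2 and RLF2, subunits of chromatin assembly factor 1, gave -0.45 and -0.22. CAC2 had 108 CPM in the first ethanol 1 h library and 43.9 in the second, and its log2 difference of -1.09 at 1 h was not called.

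Across the 46, 20 had both estradiol libraries below both ethanol libraries at 1 h (43.5%, against 16.7% of all genes), 17 at 2 h (37%, against 12.9%) and 16 at 4 h (34.8%, against 17.7%). The other way round, there were 0, 1 and 4 such members, against 14.3%, 11% and 19.3% of all genes. These were DPB4 at 2 h and, among others, DPB4, CDC7 and RAD54 at 4 h. With all 6 estradiol libraries below all 6 ethanol ones there were 10 members (21.7%, against 2.09% of all genes), namely the 8 called genes with POL2 and CSM3, and with all 6 above there were 0 (against 2.07%).

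The genes with 2 MCB elements included 7 of the 8 called ones. Among 14 members with 2 copies, 7 were called and the median mean effect was -0.47. Among 16 with 1 copy, 1 was called, CDC9, and the median was -0.18. Among 16 with none, 0 were called and the median was -0.11. Not all members with 2 copies were lower, since 13 of the 14 lay below 0. Nor were all of them called: MRC1 gave -0.17 and RLF2 -0.22. Over all tested genes, 28 of 204 genes with it were called in either direction, with a median of -0.03, and 333 of 5570 without it, with a median of 0.02. The members' copies were counted in the same list that was chosen as replication genes, so these medians are a description.

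**Figure D4:**
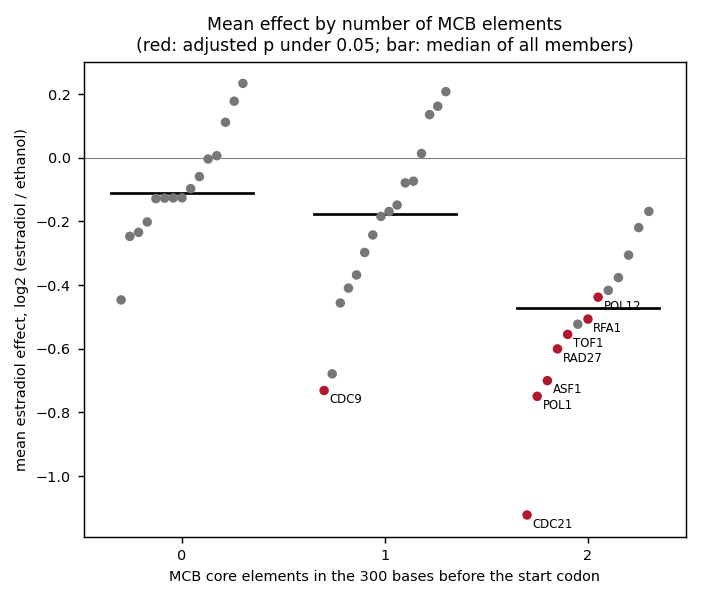
Mean estradiol effect (log2) of 44 of the 46 genes by number of ACGCGT elements in the 300 bases before the start codon, with called genes marked and a line at each median of all members. CDC21, with 2 elements, is lowest at -1.12, and the median of the members with 2 is -0.47.

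Against untreated cells at 0 h, no member passed the test in the ethanol groups. In this contrast, the solvent and time in culture cannot be told apart. The medians of the 46 were -0.26, -0.14 and -0.18 at 1, 2 and 4 h, beside 0.0015, -0.012 and -0.020 over all genes. The edgeR test called 0, 0.0473 and 1.74% of all genes at the 3 times. At unadjusted p under 0.05 there were 4, 2 and 3 members (8.7, 4.35 and 6.52%), against 6.26, 5.9 and 17.3% of all genes. DESeq2 also called 0, 0 and 0 members, where it called 0.347, 0.647 and 7.67% of all genes.

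Estradiol against untreated cells shares its untreated libraries with those comparisons, and estradiol cannot be told apart there from solvent and time in culture. At 1 h, 7 members fell and 0 rose: CDC21, CDC9, RAD27, POL12, DPB2, RFA1 and ASF1 (15.2%, against 1.53% of all genes called, 0.521% lower and 1.01% higher). At 2 h, 4 fell, CDC21, CDC9, RAD27 and POL12 (8.7%, against 3.47% of all genes, 0.963% lower and 2.51% higher). At 4 h, 5 fell, CDC21, RAD27, POL12, TOF1 and ASF1, and 1 rose (13%, against 10.7% of all genes called, 3.8% lower and 6.85% higher). The CDC21 calls held on leaving out each of the 14 libraries, and the others did not. POL12 at all 3 times, RAD27 at 1 and 4 h, RFA1 at 1 h and TOF1 at 4 h were each lost without any of the 4 libraries compared, at adjusted p = 0.0629 to 0.299. RAD27 at 2 h was lost without any of 11 libraries (both untreated, both ethanol 2 h, both ethanol 4 h, the first estradiol 1 h, both estradiol 2 h and both estradiol 4 h), at adjusted p = 0.0533 to 0.296. DPB2 at 1 h was lost without any of 8 libraries (both untreated, both ethanol 4 h, both estradiol 1 h and both estradiol 4 h), at adjusted p = 0.0549 to 0.336. ASF1 at 1 h was lost without any of 7 (both untreated, the first ethanol 2 h, both ethanol 4 h, the second estradiol 1 h and the first estradiol 4 h), at adjusted p = 0.0561 to 0.344, and at 4 h without either untreated or the second estradiol 4 h library, at adjusted p = 0.0803 to 0.181. CDC9 was lost at 1 h without the first untreated library (adjusted p = 0.0798) and at 2 h without that library or the second estradiol 2 h one (adjusted p = 0.0721 to 0.12).

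Levels per kb of coding sequence in untreated cells spread widely among the 46. RFA3, the small RPA subunit, was highest at 180.0 ± 7.8 CPM per kb (SD, n = 2), followed by POL30 at 128.5 ± 4.76 and RFA2 at 125.5 ± 20.3, which overlap within their SD, and RAD27 at 118 ± 4.69. At the low end were TOF1 at 14.1 ± 0.141, MRC1 at 11.3 ± 4.08 and RAD53 at 8.93 ± 0.708 CPM per kb. Within RPA the 3 subunits stood at 180.0, 125.5 and 61.2, and the catalytic polymerase genes POL1, POL2 and POL3 stood at 27.4, 19.6 and 19.3.

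**Figure D5:**
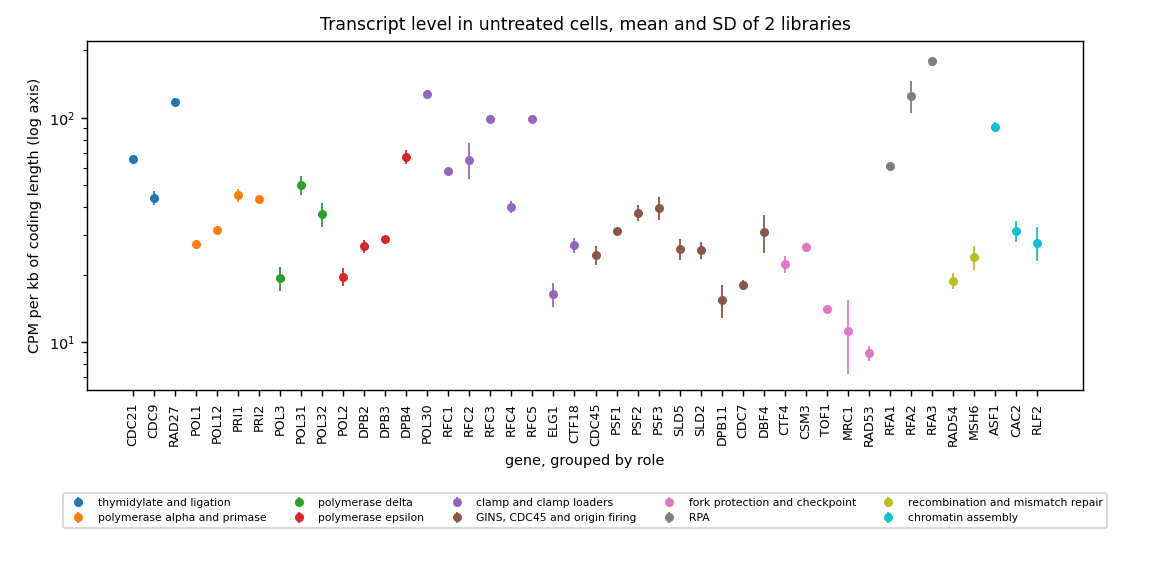
Untreated level per kb of coding sequence for 44 of the 46 genes on a log axis, with the mean and SD of the 2 libraries and a colour for each role. RFA3 lies at the top with 180.0 and RAD53 at the bottom with 8.93 CPM per kb.

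Coding length moved with the difference between replicates. Over the 46, the Spearman correlation of replicate 2 minus replicate 1 with coding length was 0.34 in untreated cells, 0.33, -0.61 and -0.59 in ethanol at 1, 2 and 4 h, and -0.72, -0.63 and -0.58 in estradiol, and all points share their libraries. For the estradiol effect it was 0.06, -0.37 and -0.43 at 1, 2 and 4 h and -0.25 over the 3 times. Against untreated cells it was -0.74, -0.41 and -0.46 for ethanol and -0.45, -0.56 and -0.53 for estradiol at 1, 2 and 4 h. The median mean effect was -0.30 in the 18 genes of 2000 bases or longer and -0.14 in the 28 shorter ones, with 4 called genes in each. The part of length in these results was not tested.

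Of 64 other replication and repair genes, a list that leaves out the 46, 2 rose and 0 fell in the mean effect, with a median of 0.12. That is 3.12%, where 6.22% of all genes were called, 3.29% higher and 2.93% lower. At 1, 2 or 4 h, 0 of the 64 were called. This list too was chosen with earlier results of these data known. RMI1, which acts with the Sgs1 helicase, rose from a mean of 16.8 to 23.4 CPM (log2 0.48, SE 0.12, adjusted p = 0.0284), and RRM3, a helicase that helps forks pass obstacles, rose from 43.4 to 55.0 CPM (log2 0.36, SE 0.09, adjusted p = 0.0394). For comparison in the same libraries, CLB5, CLB6 and NRM1, other targets of MBF, rose in 3 of 3 cases with a median of 1.87. The cyclin genes listed as targets of SBF rose in 4 of 4 cases with a median of 1.555. The core histones, made in S phase, had 3 of 8 rise (37.5%, HTA2, HHT2 and HHF2) with a median of 0.38. The 12 genes of the CLB2 cluster, transcribed later in the cycle, had 6 rise (50%) with a median of 0.61. Of 9 genes of the M/G1 phase, 1 rose (CDC6) and 4 fell (55.6% called), with a median of -0.54. Of 6 genes expressed in cells of mating type a, all 6 fell (100%), with a median of -1.08. Of 3 tested genes of mating type alpha, 0 were called, with a median of -0.09. The part of cell cycle position in the values of the 46 was not tested.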

How the data were processed

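Poly-A RNA from 14 yeast libraries, 2 in each of 7 groups, was analysed from the read counts that the authors deposited, whole numbers per open reading frame with no normalization. Reads were aligned with Bowtie2 2.2.5, per the submitters' processing notes; no source used here gives the counting tool, build or strand setting. Of 6670 identifiers, 5999 matched the R64 gene table.

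Counts were fitted in R 4.3.3 with edgeR 4.0.16 (TMM factors, filterByExpr with minimum count 10, robust quasi-likelihood, 2-sided). One coefficient per group was fitted to 14 libraries, with 6337 genes, 7 residual degrees of freedom and a common coefficient of variation of 0.206. The mean effect came from the 12 libraries given ethanol or estradiol, with a term for time, 6320 genes and 8 degrees of freedom. Genes with a Benjamini-Hochberg adjusted p under 0.05 over all genes tested were called. The SE is the absolute log2 difference over the square root of F. CPM levels are scaled by TMM factors. Values in every library are given for called members and for the member with the smallest p in each role without one. Of the 46, 2 are not reported here by name, though they stay in every count and median.

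The members and lists were chosen with earlier results of these data known. Alternatives were size factors by median of ratios, library totals, other filters, the replicate number as a block, DESeq2 1.42.0, 1 surrogate variable (sva 3.50.0), only the groups compared and leaving out each library. Leaving out the 2 libraries with the lowest TMM factors was added after seeing the data. The precision is limited by 2 libraries per group, and intervals from counts would cover counting error only.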

Additional observations from a re-analysis of the deposited data

How the results depend on the processing

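Named calls kept their direction under every alternative run. Counts of members called moved more. With library totals the counts were 0, 0 and 1 at 1, 2 and 4 h, the last a higher call that is not CDC21, and 1 over the 3 times. Of all genes, 0.884, 1.37, 1.88 and 4.24% were called there. For estradiol against untreated cells the counts were 0, 0 and 2, beside 1.26, 2.46 and 5.95% of all genes. DESeq2 called 7, 3 and 4 at 1, 2 and 4 h and 12 over the 3 times, beside 2.45, 2.37, 3.28 and 8.72% of all genes. For estradiol against untreated cells it called 14, 12 and 13, beside 3.65, 7.01 and 17.9% of all genes. With 1 surrogate variable the counts were 16, 13 and 11, and 24 over the 3 times, of which 1 was higher at 2 h, at 4 h and over the 3 times. The share of all genes called rose too, to 4.26, 6.42, 10.1 and 19.9%. There was 1 member for the change with time (0.221% of all genes called) and 2 for ethanol 4 h against untreated (20% of all genes called). For estradiol against untreated there were 24, 19 and 17, beside 15.5, 22.3 and 37.8% of all genes. With only the groups compared, 1 was called at 1 h and 0 at 2 h, beside 1.57 and 0.647% of all genes. For ethanol 2 h and 4 h against untreated there were 1 and 1, beside 4.07 and 13.4% of all genes. For estradiol against untreated there were 14, 0 and 15, beside 4.3, 0.651 and 29.1% of all genes. Without the 2 libraries of lowest TMM factor, ethanol 1 h and estradiol 2 h keep 1 library each, so only effect sizes are given. The medians of the 46 were then -0.27, -0.23 and -0.18 at 1, 2 and 4 h, beside 0.027, 0.0008 and -0.027 over all genes. For estradiol against untreated cells they were -0.37, -0.25 and -0.37, beside 0.026, 0.007 and -0.019 over all genes. Leaving out 1 library gave 0 to 2 members at 1, 2 and 4 h, with 1 higher at 4 h without either estradiol 2 h library, 5 to 9 over the 3 times, 0 to 0 for the change with time and for ethanol against untreated, and 1 to 10, 1 to 6 and 1 to 11 for estradiol against untreated. Over 21 pairs of groups, the correlation of replicate differences ran from -0.733 to 0.774, with a median of 0.372, and passed 0.1 in 11. Replicate differences were thus alike in some groups and opposite in others. These values do not settle whether replicate numbers pair the libraries. With the replicate block the counts were 2 at 2 h and 10 over the 3 times, beside 1.26 and 6.61% of all genes. Over the 3 times, POL2 (adjusted p = 0.0134) and CSM3 (adjusted p = 0.0381) passed with this block. For estradiol at 2 h and 4 h against untreated the counts were 7 and 10, beside 3.8 and 12.9% of all genes. The causes of these moves were not tested. Depth was lowest in the first ethanol 2 h library, at 3.47 M reads.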
